A study of Mus musculus with 9 samples.

Results

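Cajal-Retzius cells are early-born neurons that lie just under the pia in the outermost layer of the developing cortex. They come from the borders of the cortical sheet, chiefly the cortical hem, the septum and the boundary of pallium and subpallium, and most die in the first weeks after birth. They are best known for secreting reelin, which acts on migrating neurons through the lipoprotein receptors VLDLR and LRP8 and the adaptor DAB1 and sets the order of the cortical layers. The genes followed here are 9 that are used to recognise these cells: Reln, Trp73, Lhx1, Lhx5, Ndnf, Ebf3, Nhlh2, Calb2 and Car10. They were chosen by gene name, with earlier results of these data known. All 9 were found in both deposited tables, which hold 22496 and 23624 genes.

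Bulk RNA was sequenced from the dissected cortex of mice at postnatal day 0, in 9 libraries. All animals shared one mixed strain background, described as C57BL/6J, 129S6 and CD1. In the group called ShhN IUE (3 libraries), ShhN, the signalling fragment of Sonic hedgehog (SHH), was introduced by in utero electroporation. This delivers DNA to some of the cells along the ventricle, and no group electroporated without ShhN was given. In the SmoM2 group (3 libraries; hGFAP-Cre, SmoM2f/+), an activated form of the SHH transducer Smoothened was switched on by Cre under the human GFAP promoter, which is active in radial glia, the stem cells of the cortex. Wild-type mice (3 libraries) were the controls of both groups, and each group was compared with the wild type of its own table. The labels do not say whether replicates came from separate animals or litters, so the p-values measure the spread between these libraries, which may be partly technical.

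Libraries held 15376071 to 19604672 counts in ShhN IUE, 23625702 to 26923127 in SmoM2 and 18610507 to 21694348 in wild type. The targets of the interventions were read first. Shh had 2.59, 3.09 and 28.5 CPM (counts scaled to one library size, with TMM factors between libraries) in ShhN IUE libraries 1 to 3, against 1.87, 2.82 and 1.70 in wild type, so library 3 stood far above the controls, library 2 just above the highest of them and library 1 within their range. Gli1, a direct SHH target, stood at 26.0, 27.7 and 68.9 CPM in the same ShhN IUE libraries, against 5.65, 9.13 and 7.75 in wild type, and was higher in all 3. Smo stood at 84.1, 71.7 and 80.3 CPM in SmoM2, against 20.6, 26.1 and 19.1 in wild type. Of 16 cortical pyramidal neuron genes all were detected, for example Neurod6 at 491 to 687 CPM in ShhN IUE and 478 to 536 CPM in wild type. Meningeal tissue, which touches the layer that holds Cajal-Retzius cells, differed widely between libraries. The 16 meningeal genes summed to 112, 99.6 and 1179 CPM in ShhN IUE libraries 1 to 3, to 634, 346 and 468 CPM in SmoM2, and to 79.6, 1014 and 349 CPM in wild-type libraries 1 to 3. Aldh1a2, a defining meningeal gene, had 0 counts in ShhN IUE libraries 1 and 2 and in wild-type library 1. At an adjusted p under 0.05 in edgeR, and also at an unadjusted p under 0.05, 0 of these genes differed from wild type in either group. Without ShhN IUE library 3, 7 of the meningeal genes fell. Their median log2 fold change over all libraries was -0.68 in ShhN IUE and 0.24 in SmoM2.

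Promoter windows are shown for the start sites of Reln and Ebf3, which fell in both groups, and for the internal start site of Trp73. That internal start gives the short form of the p73 protein that Cajal-Retzius cells are known to carry, and gene-level counts do not separate it from the upstream start. Each window is the 250 bases before a RefSeq start (GRCm38.p6, all on the minus strand), and capitals mark CCCNNGGG, the core letters bound by EBF factors. The windows lie at chr5:22344706-22344955 (Reln), chr7:137314446-137314695 (Ebf3) and chr4:154097174-154097423 (Trp73).
Reln: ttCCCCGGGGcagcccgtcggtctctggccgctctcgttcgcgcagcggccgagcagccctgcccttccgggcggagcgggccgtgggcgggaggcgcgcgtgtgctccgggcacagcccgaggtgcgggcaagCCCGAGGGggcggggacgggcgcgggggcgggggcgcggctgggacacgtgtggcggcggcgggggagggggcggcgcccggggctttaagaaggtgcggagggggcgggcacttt
Ebf3: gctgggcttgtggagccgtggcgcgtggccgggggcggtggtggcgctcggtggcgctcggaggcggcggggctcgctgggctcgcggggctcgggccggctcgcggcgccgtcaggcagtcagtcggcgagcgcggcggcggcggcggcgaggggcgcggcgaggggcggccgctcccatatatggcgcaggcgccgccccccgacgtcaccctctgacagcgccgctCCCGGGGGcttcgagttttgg
Trp73: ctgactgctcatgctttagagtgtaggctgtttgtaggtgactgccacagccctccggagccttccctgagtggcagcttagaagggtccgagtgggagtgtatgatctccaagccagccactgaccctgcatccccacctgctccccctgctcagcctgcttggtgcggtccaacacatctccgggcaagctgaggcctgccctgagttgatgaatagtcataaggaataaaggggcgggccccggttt
In all, 8 such windows were found for 6 of the 9 genes. CCCNNGGG, searched on both strands, lay in 4 of these 8 windows (Reln, Ebf3 and both starts of Car10), against 11.8% of 32851 windows of all genes. The Reln and Ebf3 windows are 80.0% G and C, a composition that favours these letters. The E-box CAGCTG lay in 1 window (the upstream start of Trp73), against 13.0% of all windows. The homeodomain letters TAATTA and the GLI letters GACCACCCA lay in 0 of the 8, against 4.84% and 0.225% of all windows.

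Per unit of length, Reln was the most abundant of the genes in wild-type cortex, at 16.4 ± 1.95 FPKM (the length-scaled unit as deposited; mean and SD, n = 3, ShhN IUE table). Calb2 followed at 4.24 ± 0.623 FPKM, Ndnf at 3.33 ± 0.716, Trp73 at 1.45 ± 0.371 and Lhx5 at 0.875 ± 0.156. Nhlh2 stood at 0.854 ± 0.0301 FPKM, Ebf3 at 0.803 ± 0.260, Car10 at 0.515 ± 0.0938 and Lhx1 at 0.255 ± 0.0981. The library ranges of Calb2 and Ndnf overlapped, as did those of Lhx5 with Nhlh2, Nhlh2 with Ebf3 and Ebf3 with Car10. In SmoM2 the order differed in the middle: Ndnf (3.19 ± 0.683 FPKM) stood above Calb2 (2.57 ± 0.788) with overlapping ranges, and Lhx5 (0.311 ± 0.0317) below Ebf3 (0.347 ± 0.0581), also with overlap. In ShhN IUE all 9 stood in the same order as in wild type, with Reln at 9.18 ± 0.934 FPKM and Calb2 at 4.73 ± 0.397 FPKM.

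Among the wild-type libraries, library 1 had the highest CPM for 7 of the 9 genes, and library 3 had the lowest for 6 of 9 and the highest for 0. Ebf3 spanned 4.39 to 8.35 CPM and Lhx1 0.879 to 2.02 CPM over the wild-type libraries, whereas Nhlh2 spanned only 8.36 to 9.39 CPM. Wild-type library 1 was also the one with the lowest meningeal sum. In the treated groups no single library held most of the highest values.

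**Figure D1:**
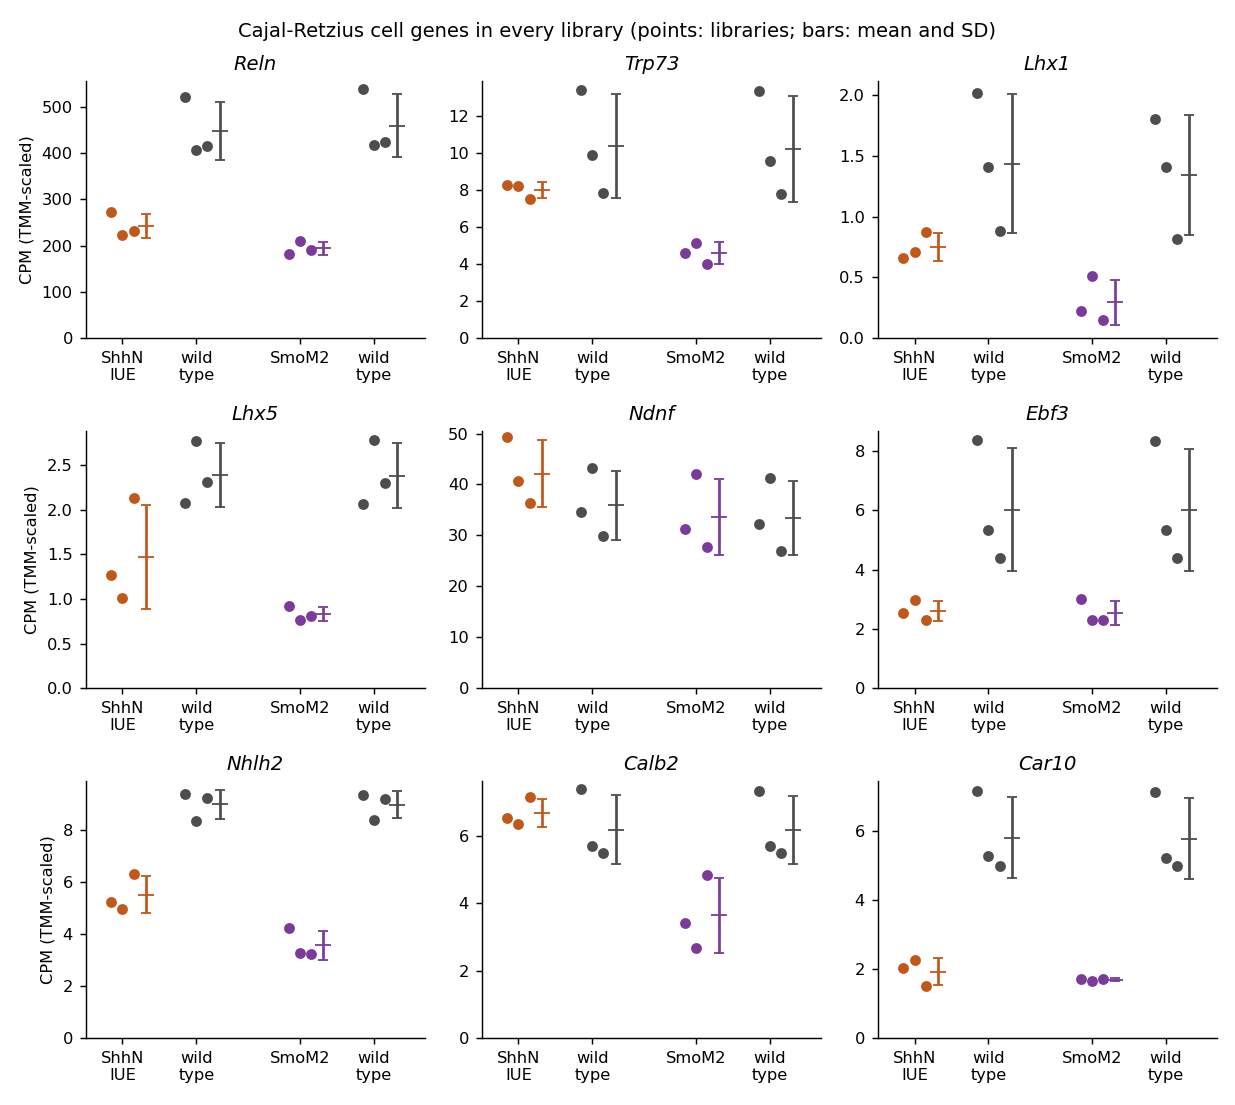
CPM of each gene (vertical axis, linear from 0) in every library, in the ShhN IUE table (left pair of groups) and the SmoM2 table (right pair); points are libraries 1 to 3, bars the mean and SD of 3. Reln, Ebf3, Nhlh2 and Car10 lie below wild type in both groups without overlap, and Ndnf overlaps wild type in both.

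Reln, Ebf3, Nhlh2 and Car10 fell in ShhN IUE cortex relative to wild type, which is 4 of the 9 genes, and 0 rose. Of all 16180 genes tested, 17.2% fell and 16.1% rose (edgeR quasi-likelihood test, adjusted p under 0.05). At an unadjusted p under 0.05, 5 of the 9 differed, as did 7301 of the 16180 genes tested. Among the 9, DESeq2 and limma-voom also gave 4 that fell and 0 that rose. The median log2 fold change was -0.71 over the 9 genes and -0.0038 over all genes. In 5 of the 9 the ShhN IUE libraries all lay below all wild-type libraries, which held for 24.9% of genes, and in 0 did they all lie above, which held for 24.5%. In bulk tissue, fewer Cajal-Retzius cells and less RNA per cell cannot be told apart, and neither can ShhN and the electroporation itself.

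In SmoM2 cortex 7 of the 9 fell relative to wild type and 0 rose, the exceptions being Ndnf and Calb2. Of 16485 genes tested, 9.29% fell and 9.59% rose. At an unadjusted p under 0.05, 8 of the 9 differed, as did 5548 of the 16485 genes tested. Among the 9, Calb2 also fell with DESeq2, the same 7 fell with limma-voom, and 0 rose with either. The median log2 fold change was -1.24 over the 9 genes and -0.0072 over all genes. In 8 of the 9, all but Ndnf, every SmoM2 library lay below every wild-type library, which held for 19.7% of genes. In 0 of the 9 did every SmoM2 library lie above, which held for 20.4%. All 9 passed the filter on low counts, Lhx1 only through its wild-type libraries (1 of 3 SmoM2 libraries reached the filter's 0.442 CPM), so its lower level was partly fixed by entry to the test. Without any filter Lhx1 had adjusted p = 0.0206. The wild-type libraries serve both comparisons, so the falls in the 2 groups are not separate evidence.

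**Figure D2:**
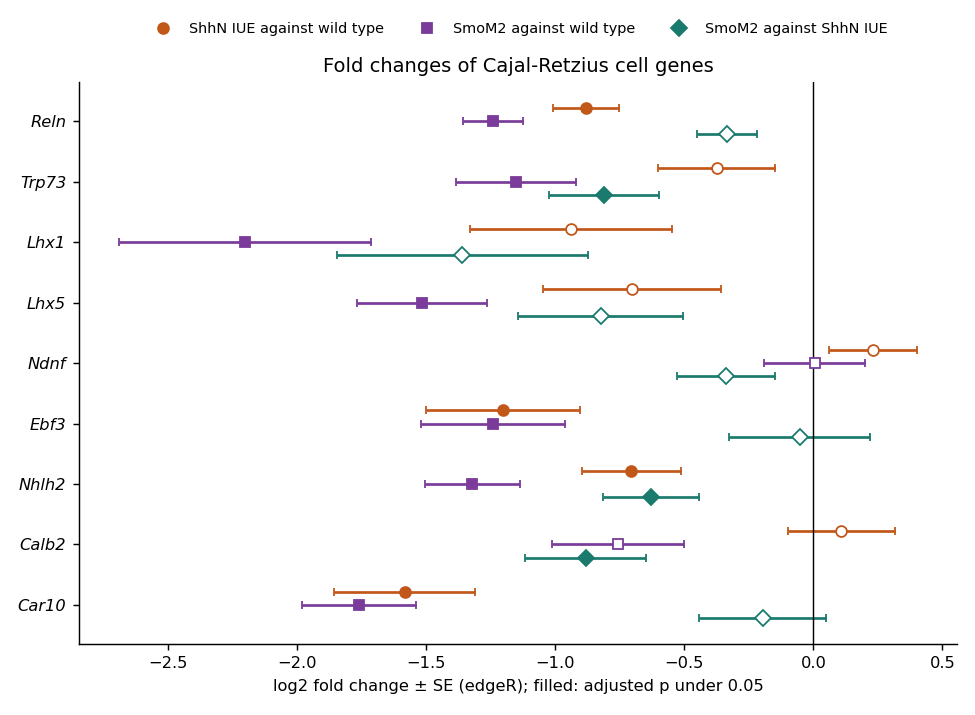
Log2 fold change (horizontal axis) with its SE for each gene in ShhN IUE against wild type (circles), SmoM2 against wild type (squares) and SmoM2 against ShhN IUE (diamonds); filled symbols have adjusted p under 0.05. The filled symbols are 4 circles, 7 squares and 3 diamonds, all left of 0.

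Reelin itself came first among the secreted products. Reln (chromosome 5, 21884454 to 22344702, minus strand) had 273, 224 and 233 CPM in ShhN IUE, against 521, 407 and 416 CPM in wild type. Every ShhN IUE library lay well below the lowest wild-type library. Its log2 fold change was -0.88 ± 0.13 (SE, n = 3 per group, adjusted p = 0.00237, edgeR), or 1.84-fold lower. In SmoM2 it had 182, 209 and 192 CPM, against 538, 417 and 424 CPM for the same wild-type libraries in that table. The SmoM2 libraries lay close together, all far below the lowest wild-type library. Reln fell by 1.24 on the log2 scale in SmoM2 (SE 0.12, adjusted p = 0.000530, edgeR), or 2.37-fold. Leaving out ShhN IUE library 3 and wild-type library 2, the highest in meningeal genes, gave -0.91 in ShhN IUE (adjusted p = 0.0130). Interneurons also transcribe Reln. Of 20 genes of interneurons from the ganglionic eminences, 9 rose and 6 fell in ShhN IUE, and 9 rose and 7 fell in SmoM2. Of all genes tested, 16.1% rose and 17.2% fell in ShhN IUE, and 9.59% rose and 9.29% fell in SmoM2. The summed level of the interneuron genes was 1329 to 1856 CPM in ShhN IUE and 1437 to 1496 CPM in SmoM2, against 1018 to 1067 CPM in wild type (1000.2 to 1082 CPM in the SmoM2 table). Their part in the level of Reln was not tested.

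Ndnf encodes a secreted factor and also marks interneurons of layer 1. Ndnf (chromosome 6, 65671590 to 65712326, plus strand) had 49.3, 40.8 and 36.4 CPM in ShhN IUE, against 34.5, 43.3 and 29.9 CPM in wild type. In SmoM2 it had 31.2, 42.0 and 27.7 CPM, against 32.3, 41.3 and 26.9 CPM in wild type. The groups overlapped in both tables, and Ndnf stood apart from the other members in this. Its log2 fold change was 0.23 ± 0.17 in ShhN IUE (adjusted p = 0.330, edgeR) and 0.0050 ± 0.20 in SmoM2 (adjusted p = 0.988, edgeR).

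Among the transcription factors, Trp73 encodes p73, a p53 relative that Cajal-Retzius cells need to survive. Trp73 (chromosome 4, 154056253 to 154140208, minus strand) had 8.29, 8.25 and 7.51 CPM in ShhN IUE, against 13.4, 9.91 and 7.86 CPM in wild type. The ShhN IUE values were tight and reached into the range of wild type through wild-type library 3. The difference of -0.37 ± 0.23 on the log2 scale did not pass (adjusted p = 0.234, edgeR). In SmoM2 it had 4.62, 5.17 and 4.03 CPM, against 13.4, 9.55 and 7.77 CPM in wild type, with no overlap. It fell by 1.15 on the log2 scale there (SE 0.23, adjusted p = 0.0120, edgeR), a call lost without SmoM2 library 3 (-1.05, adjusted p = 0.0621).

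Lhx1 and Lhx5 are a closely related pair of LIM-homeodomain factors. Lhx1 (chromosome 11, 84518284 to 84525535, minus strand) rested on few reads, with 6, 12 and 4 counts in SmoM2, against 35, 31 and 15 counts in wild type. On the CPM scale that was 0.220, 0.508 and 0.153 in SmoM2, against 1.81, 1.41 and 0.821 in wild type. Its log2 fold change of -2.20 ± 0.49 (adjusted p = 0.0175, edgeR) lost its call without SmoM2 library 1 or 3 (adjusted p = 0.0759 and 0.0773) and was -2.80 without SmoM2 library 2. In ShhN IUE it had 0.661, 0.712 and 0.877 CPM, against 2.02, 1.41 and 0.879 CPM in wild type. The groups only just failed to overlap, and the difference of -0.94 ± 0.39 did not pass (adjusted p = 0.0994, edgeR).

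Lhx5 (chromosome 5, 120431699 to 120441223, plus strand) had 0.917, 0.763 and 0.805 CPM in SmoM2, against 2.07, 2.78 and 2.30 CPM in wild type. The SmoM2 libraries were nearly level and far below. Its log2 fold change was -1.52 ± 0.25 (adjusted p = 0.00547, edgeR), and the alternatives gave adjusted p between 0.00154 and 0.0377. In ShhN IUE it had 1.27, 1.01 and 2.13 CPM, against 2.07, 2.77 and 2.31 CPM in wild type. ShhN IUE library 3 lay within wild type and the other two below it, and the difference of -0.70 ± 0.35 did not pass (adjusted p = 0.150, edgeR).

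Ebf3, a helix-loop-helix factor of the EBF family, fell in both groups. Ebf3 (chromosome 7, 137193673 to 137314445, minus strand) had 2.54, 2.97 and 2.32 CPM in ShhN IUE, against 8.35, 5.32 and 4.39 CPM in wild type. It had 3.01, 2.29 and 2.30 CPM in SmoM2, against 8.31, 5.32 and 4.38 CPM in wild type. The treated libraries were alike, and the spread lay in wild type. The log2 fold change was -1.20 ± 0.30 in ShhN IUE (adjusted p = 0.0176, edgeR) and -1.24 ± 0.28 in SmoM2 (adjusted p = 0.0186, edgeR). Ebf3 no longer passed in ShhN IUE when its library 1 was dropped (adjusted p = 0.0623) or when both libraries highest in meningeal genes were (adjusted p = 0.0628). In SmoM2 it no longer passed when library 2 or 3 was dropped (adjusted p = 0.0716 and 0.0827).

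Nhlh2, a basic helix-loop-helix factor of newborn neurons, was steadier among the controls. Nhlh2 (chromosome 3, 102010076 to 102015492, plus strand) had 5.24, 4.99 and 6.32 CPM in ShhN IUE, against 9.39, 8.36 and 9.23 CPM in wild type. In SmoM2 it had 4.22, 3.26 and 3.26 CPM, against 9.35, 8.37 and 9.19 CPM in wild type. No library of either group reached the wild-type range. The log2 fold change was -0.71 ± 0.19 in ShhN IUE (adjusted p = 0.0245, edgeR) and -1.32 ± 0.18 in SmoM2 (adjusted p = 0.00265, edgeR). In ShhN IUE, Nhlh2 no longer passed when library 1 or 2 of that group was dropped, when wild-type library 1 or 3 was, or under the replicate block (adjusted p = 0.0562 to 0.0930).

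Car10 encodes a carbonic anhydrase relative without enzyme activity that binds neurexins at the synapse. Car10 (chromosome 11, 93098028 to 93601749, plus strand) had 40, 38 and 24 counts in ShhN IUE, against 138, 116 and 91 counts in wild type, or 1.93 ± 0.387 CPM and 5.81 ± 1.18 CPM (SD, n = 3 each). In SmoM2 it had 1.72, 1.65 and 1.73 CPM, against 7.13, 5.23 and 4.98 CPM in wild type. These were wide gaps beside the spread in either group. The log2 fold change was -1.58 ± 0.27 in ShhN IUE (adjusted p = 0.00462, edgeR) and -1.76 ± 0.22 in SmoM2 (adjusted p = 0.00180, edgeR), or 3.00-fold and 3.39-fold lower.

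Calb2 encodes calretinin, a calcium-binding protein of Cajal-Retzius cells that some interneurons and thalamic neurons share. Calb2 (chromosome 8, 110142539 to 110168206, minus strand) had 6.51, 6.35 and 7.14 CPM in ShhN IUE, against 7.36, 5.68 and 5.49 CPM in wild type. The groups overlapped, and the log2 fold change of 0.11 ± 0.21 did not pass (adjusted p = 0.712, edgeR). In SmoM2 it had 3.41, 2.67 and 4.83 CPM, against 7.33, 5.69 and 5.47 CPM in wild type. All SmoM2 libraries were lower, but the log2 fold change of -0.76 ± 0.26 did not pass (adjusted p = 0.0741, edgeR). DESeq2 gave an adjusted p of 0.0412. Of olfactory bulb interneuron genes, 5 of 12 rose and 1 fell in ShhN IUE and 8 of 11 rose and 0 fell in SmoM2. Of 7 thalamic neuron genes tested, a list that includes Calb2, 0 rose and 1 fell in ShhN IUE, and 1 rose and 1 fell in SmoM2. The shares over all genes tested were 16.1% rising and 17.2% falling in ShhN IUE, and 9.59% and 9.29% in SmoM2. The part of either cell type in the level of Calb2 was not tested.

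**Figure D3:**
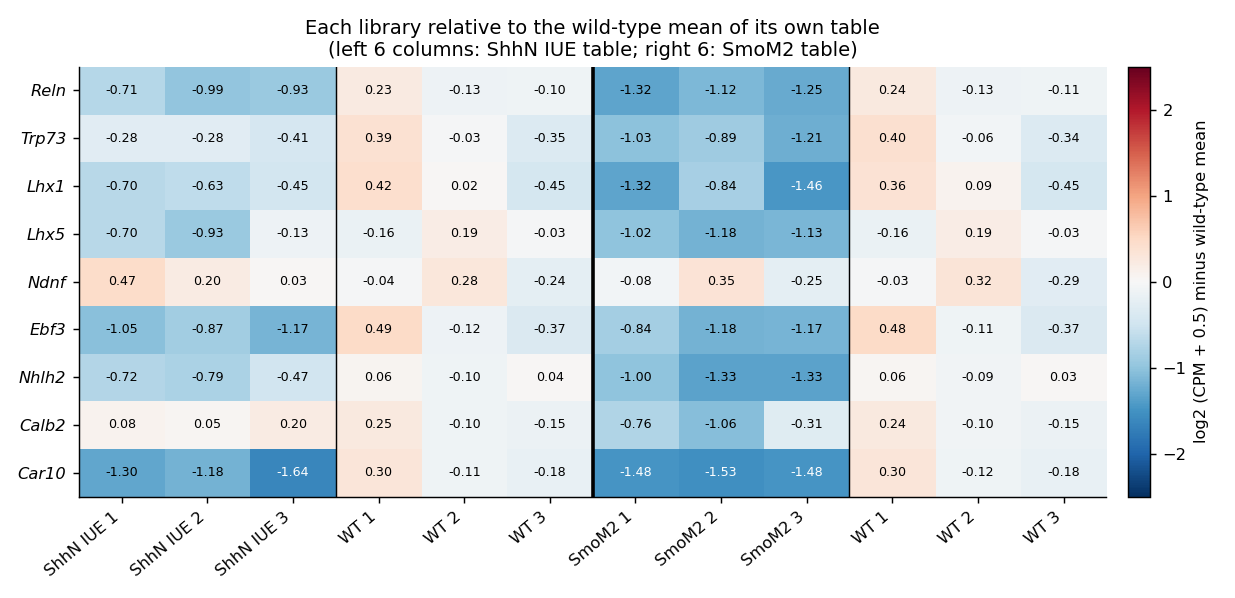
Each library's log2 (CPM + 0.5) minus the mean of the wild-type libraries in the same table, for the 9 genes (rows) and the 12 library columns of both tables; blue is below and red above wild type. Car10 lies between -1.64 and -1.18 in all treated columns and Ndnf between -0.25 and 0.47. Reln, Trp73, Lhx1, Lhx5, Nhlh2 and Calb2 are lower in every SmoM2 column than in any ShhN IUE column.

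The SmoM2 and ShhN IUE libraries were then compared directly, over 12349 genes whose wild-type counts agreed between the tables. All 9 genes qualified, and CPM in this fit are higher because fewer genes share the total. Trp73, Nhlh2 and Calb2 were lower in SmoM2, and 0 of the 9 were higher. Of all genes tested, 8.07% were lower and 8.45% higher. The groups did not overlap, with SmoM2 lower, in 6 of the 9 (20.6% of all genes) and with SmoM2 higher in 0 (20.4%). Trp73 averaged 6.99 ± 0.872 CPM in SmoM2 and 12.3 ± 0.753 CPM in ShhN IUE (SD, n = 3 each), a log2 difference of -0.81 ± 0.21 (SE, adjusted p = 0.0275, edgeR). Calb2 averaged 5.52 ± 1.66 CPM in SmoM2 and 10.2 ± 0.570 CPM in ShhN IUE, a difference of -0.88 ± 0.23 (adjusted p = 0.0288, edgeR). Nhlh2 averaged 5.43 ± 0.852 CPM in SmoM2 and 8.43 ± 1.03 CPM in ShhN IUE, a difference of -0.63 ± 0.19 (adjusted p = 0.0420, edgeR). In these 3 genes the groups did not overlap. The calls were fragile. That of Trp73 was lost when any SmoM2 library or ShhN IUE library 1 or 2 was dropped (adjusted p up to 0.106), and that of Calb2 when SmoM2 library 1 or 2, or ShhN IUE library 1 or 3, was dropped (adjusted p up to 0.108). Nhlh2 no longer passed when any of 6 of the 9 libraries was dropped, nor under the replicate block, where adjusted p reached 0.147 and 0.0678. All 3 calls were lost without SmoM2 library 2 or ShhN IUE library 1. Meningeal genes in this fit, 14 of them, summed to 727, 358 and 545 CPM in SmoM2, against 41.6, 66.0 and 1281 CPM in ShhN IUE, and their part in these differences was not tested.

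For the other members the direct difference did not pass. It was -0.33 ± 0.12 for Reln (adjusted p = 0.0735, edgeR), where all SmoM2 libraries were lower, and passed without wild-type library 1 (-0.32, adjusted p = 0.0440). Lhx1 differed by -1.36 ± 0.49 (adjusted p = 0.0796, edgeR) and Lhx5 by -0.82 ± 0.32 (adjusted p = 0.101, edgeR), again with every SmoM2 library lower. For Lhx1 only 1 of 3 SmoM2 libraries reached the filter of this fit, against 3 of 3 in ShhN IUE, so its lower level was partly fixed by entry here too. Ndnf differed by -0.34 ± 0.19, Car10 by -0.20 ± 0.25 and Ebf3 by -0.05 ± 0.27 (adjusted p = 0.242, 0.620 and 0.916, edgeR), all with overlap.

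Reelin's signalling partners were followed in a list of 29 genes, all tested. In ShhN IUE 6 of them fell and 3 rose, and in SmoM2 2 fell and 0 rose, with medians of -0.19 and 0.0088 on the log2 scale. Over all genes tested, 17.2% fell and 16.1% rose in ShhN IUE, and 9.29% fell and 9.59% rose in SmoM2. The receptors and the adaptor did not pass in either group. Vldlr differed by -0.26 ± 0.15 in ShhN IUE and -0.30 ± 0.12 in SmoM2 (adjusted p = 0.196 and 0.111, edgeR), and Dab1 by -0.11 ± 0.12 and -0.24 ± 0.091 (adjusted p = 0.502 and 0.104, edgeR). Lrp8 differed by -0.04 ± 0.27 in ShhN IUE and 0.02 ± 0.15 in SmoM2 (adjusted p = 0.931 and 0.942, edgeR). Adamts2, a protease that can cleave reelin, had 9.66, 14.1 and 11.9 CPM in ShhN IUE, against 37.1, 42.4 and 50.3 CPM in wild type, with a log2 fold change of -1.87 ± 0.18 (adjusted p = 0.000798, edgeR). It fell by 0.83 in SmoM2 (SE 0.17, adjusted p = 0.0127, edgeR). Adamts3, the main reelin-cleaving enzyme of the young cortex, had 52.3, 58.8 and 54.4 CPM in SmoM2, against 91.2, 74.3 and 82.9 CPM in wild type. It fell by 0.59 on the log2 scale in SmoM2 (SE 0.11, adjusted p = 0.00757, edgeR), and its difference in ShhN IUE was -0.26 ± 0.13 (adjusted p = 0.141, edgeR). Rap1b and Rap1a, small GTPases downstream of DAB1, fell by 0.94 and 0.66 in ShhN IUE (SE 0.13 and 0.13, adjusted p = 0.00218 and 0.00755, edgeR). When ShhN IUE library 1 was dropped 0 of the list rose in that group, and when wild-type library 2 was, 1 did. The number that fell in SmoM2 was 1 without SmoM2 library 1 or 2 and 4 without wild-type library 2.

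A second list held 19 further genes reported from Cajal-Retzius cells, many of which other cortical neurons share. In ShhN IUE 5 of the 17 tested fell and 3 rose, and in SmoM2 4 of 18 fell and 0 rose. The shares of all genes tested that fell and rose were 17.2% and 16.1% in ShhN IUE, and 9.29% and 9.59% in SmoM2. The 3 rises in ShhN IUE (Unc5b, Cxcr4 and Nectin1, the last also in the reelin list) were lost without ShhN IUE library 1. Ebf2, a relative of Ebf3, had 5, 5 and 7 counts in ShhN IUE, against 37, 41 and 24 in wild type. It had 7, 8 and 8 counts in SmoM2, against the same wild-type counts. It fell by 2.36 on the log2 scale in ShhN IUE (SE 0.38, adjusted p = 0.00343, edgeR) and by 2.48 in SmoM2 (SE 0.31, adjusted p = 0.00186, edgeR). Its mean level was 0.330 CPM in ShhN IUE and 0.301 CPM in SmoM2, below the filter in both tables, so it entered both tests through wild type and its lower level was partly fixed by entry. Cacna2d2, a calcium channel subunit, had 28.2, 23.2 and 22.2 CPM in ShhN IUE, against 51.3, 40.4 and 40.5 CPM in wild type. It had 16.7, 19.9 and 18.9 CPM in SmoM2, against 51.5, 40.2 and 47.5 CPM in wild type, and passed in both (adjusted p = 0.00489 and 0.000568, edgeR). Tbr1, which Cajal-Retzius cells share with deep-layer pyramidal neurons, fell by 0.81 on the log2 scale in ShhN IUE (SE 0.18, adjusted p = 0.0114, edgeR) and by 1.00 in SmoM2 (SE 0.10, adjusted p = 0.000655, edgeR). Of 16 cortical pyramidal neuron genes, a list that includes Tbr1, 7 fell and 0 rose in ShhN IUE and 10 fell and 1 rose in SmoM2, and their part in the shared genes was not tested. Genes of striatal and subpallial neurons fell furthest, 15 of 16 in each group, with medians of -3.34 in ShhN IUE and -2.56 in SmoM2. Of 12 pan-neuronal genes 3 fell and 1 rose in ShhN IUE, and 3 fell and 2 rose in SmoM2.

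Genes of the places where Cajal-Retzius cells arise, and of the factors that set their fate, were mostly not called. Of 14 tested in ShhN IUE 1 rose and 0 fell, and of 16 tested in SmoM2 1 rose and 2 fell. Among all genes tested, 16.1% rose and 17.2% fell in ShhN IUE, and 9.59% rose and 9.29% fell in SmoM2. Wnt3a, a signal of the cortical hem, was too low to test, with 0 counts in every ShhN IUE library and 1, 0 and 1 in SmoM2, against 1, 5 and 4 in wild type. Dbx1, which marks founder cells at the septum and the pallial boundary, reached 56, 45 and 66 counts in the SmoM2 libraries. Its counts were 4, 0 and 10 in ShhN IUE, against 0, 1 and 0 in wild type. In ShhN IUE it was too low to test against wild type. It entered the SmoM2 test only through the SmoM2 libraries, so its higher level there (adjusted p = 0.000432, edgeR) was partly fixed by entry. Emx2, a dorsal patterning factor needed for normal numbers of Cajal-Retzius cells, fell by 0.78 on the log2 scale in SmoM2 (SE 0.16, adjusted p = 0.0115, edgeR) and differed by -0.09 ± 0.21 in ShhN IUE (adjusted p = 0.770, edgeR).

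**Figure D4:**
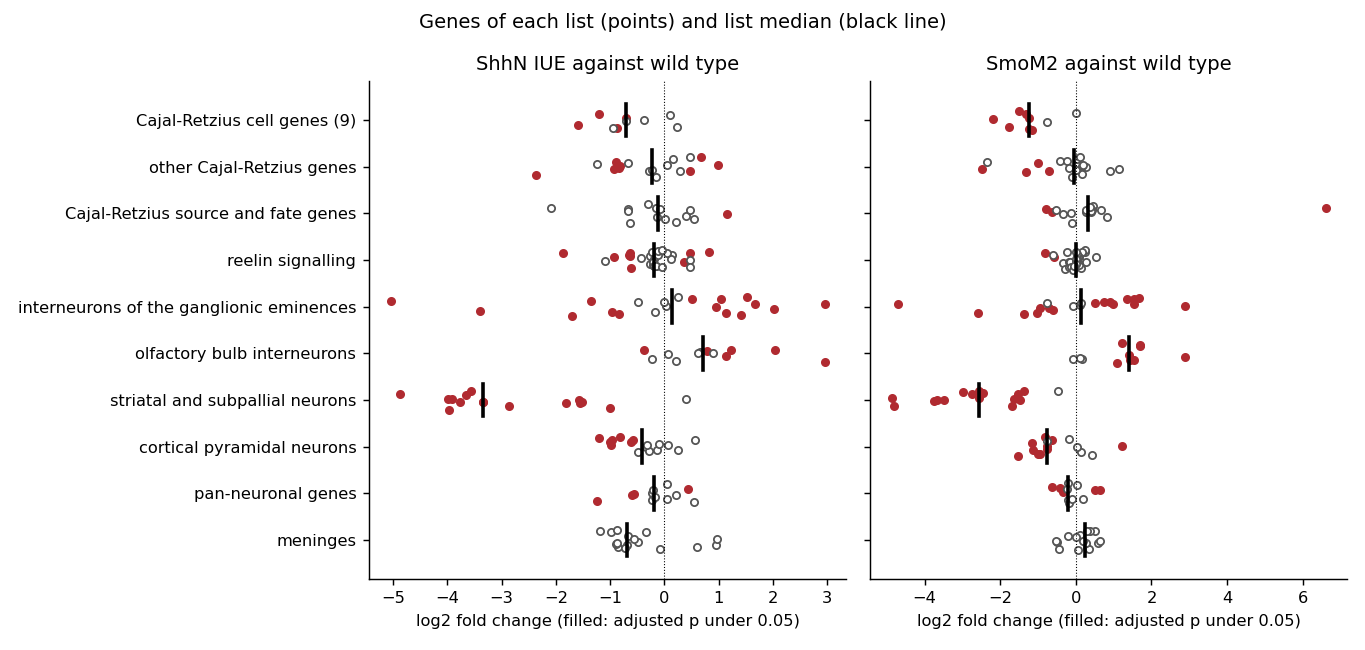
Log2 fold change (horizontal axis) of every tested gene of 10 lists in ShhN IUE (left) and SmoM2 (right) against wild type; filled points have adjusted p under 0.05 and black lines are list medians. The 9 genes have medians of -0.71 and -1.24, the reelin signalling list -0.19 and 0.0088, and the meningeal list -0.68 and 0.24. The isolated point at the right of the SmoM2 panel is Dbx1, whose fold rests on 1 wild-type count.

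The genes whose library-by-library pattern was closest to that of Reln were Cacna2d2, Slc8a3, Tagap1, Slc17a6 and Bcl11b. Closeness was the root mean square difference of log2 (CPM + 0.5), centred on wild type, over the 12 library columns of both tables, among 11214 genes. It ranged from 0.07 for Cacna2d2 to 0.10 for Bcl11b. Slc17a6, a glutamate transporter gene, had log2 fold changes of -0.78 in ShhN IUE and -1.22 in SmoM2. Nearest to Trp73 were Syt3, Dgkg, BC024139, Wscd1 and Slc12a5, less closely, at 0.14 to 0.19. Their log2 fold changes were -1.29 to -0.81 in SmoM2 and -0.41 to -0.16 in ShhN IUE. All these genes were picked for their likeness over the same libraries, so their fold changes restate the choice.

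The authors' deposited table marks 2 of the 9 genes as down in ShhN IUE, Car10 and Ebf3, and 7 in SmoM2, the same 7 that fell here. In the authors' deposited table Reln has q = 8.30e-06 in ShhN IUE and is not marked, and Nhlh2 has q = 0.0839. Ebf3 is marked there at q = 0.0120, so the marks do not rest on q alone. The calls made here rest on adjusted p alone, so the 2 thresholds are unlike. The share of all genes that the authors marked was not counted. Exons of an antisense gene overlap those of Reln, Trp73, Lhx5 and Ebf3 in GENCODE M21. The sources used here do not say whether counting used strand, so reads of those antisense genes cannot be told apart from theirs.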

How the data were processed

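Counts per gene and library and FPKM values come from 2 tables the authors deposited, per the file headers, 1 for each treated group with the same 3 wild-type libraries. The deposited q-value of each table belongs to the authors' own comparison. Per the submitters' processing notes, the tools named are HISAT2, StringTie and edgeR, without versions, and the builds are GRCm38.p4 and mm10. Coordinates are those of the deposited tables.

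Among 16222 genes whose wild-type counts reached 60, 25.9% differed between tables by more than 0.1 on the log2 scale, so each group was tested within its own table. The 9 members agreed within 0.1.

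Testing used R 4.3.3 and the edgeR 4.0.16 quasi-likelihood F test, TMM scaling and filterByExpr (minimum count 10), over all genes, with Benjamini-Hochberg adjustment and a threshold of 0.05. Each SE is the size of the log2 fold change divided by the square root of F. SmoM2 was compared with ShhN IUE in a fit of all 9 libraries, with wild-type counts averaged over tables. Alternatives used DESeq2 1.42.0, limma-voom (limma 3.58.1), other scalings, filters and tolerances, a replicate block, and each library left out. The functions were tested on simulated counts.

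Replicates differed by more than counting noise (chi-square per degree of freedom 16.5 to 34.3), so none was taken as a library deposited again. This does not show that they came from separate animals. The members and lists were chosen with earlier results of these data known. Beside the members, named genes are Vldlr, Lrp8, Dab1, Tbr1, up to 3 called genes per list, taken by adjusted p, and the 5 nearest in pattern to Reln and to Trp73, of which some are left out. A further gene the rule names is not reported here. Shh, Gli1, Smo, Neurod6, Aldh1a2, Rap1a, Wnt3a, Unc5b, Cxcr4 and Nectin1 were named after their values were seen. Rbx2, on the reelin list, is another name of Rnf7 and was not counted.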

Additional observations from a re-analysis of the deposited data

Results flagged for a closer look

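Trp73, Calb2 and Nhlh2 were lower in SmoM2 than in ShhN IUE, as were 8.07% of all genes tested. Their log2 differences, SmoM2 minus ShhN IUE, were -0.81, -0.88 and -0.63 (edgeR, adjusted p = 0.0275, 0.0288 and 0.0420), tested directly over libraries. SmoM2 libraries were lower than all ShhN IUE libraries in each case. The way SHH signalling was raised cannot be told apart here from the electroporation, which had no control of its own. The part of meningeal content, which also varied, was not tested. All 3 calls were lost without SmoM2 library 2 or ShhN IUE library 1.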

How the results depend on the processing

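Over the alternatives, Reln and Car10 kept their direction and their calls in both comparisons with wild type, and Lhx5 and Nhlh2 did so in SmoM2. When 1 library at a time was left out, the number of members that fell was 2 to 4 in ShhN IUE (2 without ShhN IUE library 1) and 4 to 7 in SmoM2 (4 without SmoM2 library 3), and 0 to 3 were lower in SmoM2 than in ShhN IUE. Over all genes these ranges were 1684 to 2325 lower and 1567 to 2299 higher in ShhN IUE, 601 to 1412 and 733 to 1598 in SmoM2, and 351 to 1080 and 483 to 1259 for SmoM2 against ShhN IUE. Without both ShhN IUE library 3 and wild-type library 2, a setting chosen after seeing the data, 3 members fell in ShhN IUE, and over all genes 1710 were lower and 1548 higher. Fits that leave a group with 2 libraries have less power by construction.

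Differences near 0 changed sign. Ndnf in SmoM2 was -0.0083 with limma-voom and -0.17 to 0.18 with a library left out, and Ebf3 in SmoM2 against ShhN IUE was -0.20 to 0.051 with a library left out. The cause was not tested.

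Same-numbered libraries did not deviate together from their group means (correlations of -0.322 to 0.278), so the numbers were not taken as pairs. With the replicate block Nhlh2 lost its call in ShhN IUE and in SmoM2 against ShhN IUE. No other call of a member changed under it. Lhx1 was not tested under the filter at 1 CPM, and depth limits it most. Counts of 4 to 39 per library leave wide errors.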
